A study of Mus musculus with 6 samples.

Results

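Glial cells and neural progenitors sense peptides and lipids in their surroundings with G protein-coupled receptors, membrane-spanning proteins that pass a signal to G proteins inside the cell. Described here are 7 such receptor genes, Gpr37l1, Gpr37, Ednrb, S1pr1, Lpar1, Ntsr2 and Gprc5b, taken by their symbols from tables of 17006 genes. They were measured by bulk RNA sequencing in cultured primary neural stem cells of the subventricular zone, the germinal layer that lines the lateral ventricles of the mouse brain. The donors were C57BL/6 mice, either young (2 months) or aged (15 to 18 months), and each group has 3 libraries. For dissociation the tissue of 5 mice was pooled, and all cells were kept in proliferation medium, so both groups share the culture and neither describes the tissue itself. The labels name no genotype or treatment, and they do not say whether the libraries of a group came from separate pools, so the spread between libraries may be technical. The set was proposed with the values of the age comparison known, among them the higher level of Gpr37l1 in aged libraries. Their differences between the ages are therefore given as a description, and the count of members called in the fit across all genes supports nothing.

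The members bind different kinds of ligand. GPR37L1 and GPR37 are related receptors for which peptides of prosaposin, a lysosomal and secreted glycoprotein, have been proposed as ligands. GPR37L1 is known from astrocytes and oligodendrocyte precursors and GPR37 from oligodendrocytes. EDNRB is the type B receptor for endothelins, vasoactive peptides that also act on astrocytes. S1PR1 and LPAR1 are receptors for the lysophospholipids sphingosine-1-phosphate and lysophosphatidic acid, NTSR2 binds the neuropeptide neurotensin, and GPRC5B is an orphan receptor of class C that is induced by retinoic acid.

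Values are FPKM, fragments counted per length of a transcript and per size of the library, so they can be compared between genes. Steps in the low values put the libraries at about 5254861 to 5435964 counted reads. The fit across all genes was made with limma on log2(FPKM + 1) for those 11912 genes whose mean reached 1 FPKM, and a gene was called at a Benjamini-Hochberg adjusted p under 0.05. It called 86 genes, 39 higher and 47 lower in aged libraries. Without limma's trend it called 11, and with 1 library left out 39 (young 3), 45 (young 2), 47 (young 1), 48 (aged 1), 57 (aged 3) or 70 (aged 2). Among stem cell markers, Fabp7 lay at 2662 to 2878 FPKM and Egfr at 60.9 to 70.07 FPKM over the 6 libraries, with overlap between the ages. Sox2 was higher in aged libraries without overlap, and Nes, Vim and Pax6 were lower, with limma adjusted p of 0.358, 0.379, 0.0608 and 0.219. The defining markers of microglia, endothelium and mature oligodendrocytes were near 0, with Ptprc at 0.04 FPKM or less, Pecam1 at 0.17 FPKM or less and Mog at 0.22 FPKM or less in every library.

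Of the 7 members, 6 had a mean of at least 1 FPKM and entered the fit, and Lpar1 did not. Young and aged libraries did not overlap for 2 members, Gpr37l1 (higher in aged) and Ednrb (lower in aged), where 17.6% of all tested genes showed no overlap in either direction, 8.98% higher and 8.58% lower. By limma 1 of the 6 tested members was called, Gpr37l1, against 0.722% of all tested genes (0.327% higher and 0.395% lower), and that call was lost in limma without its trend (adjusted p = 0.0614). An unadjusted p under 0.05 was reached by 11.9% of all tested genes. Without aged 3 the groups of 4 members did not overlap, those of S1pr1 and Gprc5b too. Ntsr2 joined Gpr37l1 and Ednrb without young 2, and Gpr37 joined them without young 3. Groups separate more easily with fewer libraries, and the share over all genes was not computed for these runs. Because the set was chosen on this comparison, nothing is read from any of these counts. The median difference of the 6 tested members on the log2(FPKM + 1) scale was 0.11, beside 0.003 over all tested genes.

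The sequences around the starts of these 2 genes are shown because they are the members whose libraries separated by age, in opposite directions. Each is the RefSeq window (GRCm38.p6, the mm10 assembly) from 250 bases before to 50 bases after a transcription start, printed 5′ to 3′ on the strand of the gene. Capitals mark matches on either strand to TTGGC, the half-site of the NFI transcription factors of glial development, whose reverse complement is GCCAA.
Gpr37l1, chr1:135167632-135167931, minus strand: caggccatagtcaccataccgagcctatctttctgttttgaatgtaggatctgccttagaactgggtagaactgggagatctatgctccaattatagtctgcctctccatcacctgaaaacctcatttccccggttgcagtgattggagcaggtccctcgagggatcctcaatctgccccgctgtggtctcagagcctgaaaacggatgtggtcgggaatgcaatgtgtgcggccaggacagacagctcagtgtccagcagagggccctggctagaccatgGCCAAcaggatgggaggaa
Ednrb, chr14:103843652-103843951, minus strand: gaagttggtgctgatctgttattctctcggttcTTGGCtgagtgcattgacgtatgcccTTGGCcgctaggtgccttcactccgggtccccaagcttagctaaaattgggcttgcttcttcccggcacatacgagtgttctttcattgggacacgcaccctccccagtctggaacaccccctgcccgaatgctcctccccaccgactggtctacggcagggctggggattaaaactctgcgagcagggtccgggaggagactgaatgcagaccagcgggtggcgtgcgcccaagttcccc
The window of Gpr37l1 holds 1 match, which begins at base 32 counted from the start site. That of Ednrb holds 2 matches, which begin at bases -217 and -191. The Ednrb window surrounds the start of one of its transcripts and lies inside the annotated span of the gene, which begins further upstream. Of 27025 genes, each taken with 1 window, 47.0% hold at least 1 match. Neither window holds ACGTG, the core of the hypoxia response element (19.7% of all windows), or ACAAT, a core of SOX factor sites (31.6%), on either strand. As only TTGGC was found, no 2 motifs overlap in these windows. These are matches of letters and not binding sites.

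Gpr37l1 (gene 171469, mm10 chromosome 1, 135160250 to 135167681, minus strand, 2 exons in its principal transcript) was higher in every aged library. It lay at 39.0, 47.3 and 47.4 FPKM in the young libraries and at 74.7, 73.5 and 77.6 FPKM in the aged ones. The lowest aged value was well above the highest young one, and young 1 was the lowest of all 6. The means were 44.5 ± 4.82 FPKM in the young and 75.3 ± 2.11 FPKM in the aged libraries (SD, n = 3 per age), a ratio of 1.69. The difference on the log2(FPKM + 1) scale was 0.75 ± 0.09 (SE), which put it at place 47 from the highest among the 11912 tested genes. About 479 to 584 estimated reads per young library and 877 to 942 per aged library stand behind these values. Read sampling at that depth gives a coefficient of variation of about 4.27% in young and 3.32% in aged libraries, while the libraries varied by 10.8% and 2.81%. Without young 1 the difference was 0.66, and with any 1 library left out it stayed between 0.66 and 0.80.

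Most markers of the oligodendrocyte precursor lineage also lay higher in aged libraries. Their summed level was 1941 to 1989 FPKM in the young and 2052 to 2091 FPKM in the aged libraries, with 6 of 7 markers higher without overlap and 0 of 7 called (limma adjusted p from 0.0604 to 0.601). Olig1 and Olig2, transcription factors of the lineage that progenitors in culture also express, make up most of that sum. Among the precursor markers of low level, Pdgfra lay at 1.48 to 1.59 FPKM in the young and 1.96 to 2.62 FPKM in the aged libraries. The summed level of 8 astrocyte markers overlapped between the ages, at 678 to 692 FPKM and 688 to 693 FPKM. Of these markers 5 were higher and 2 lower without overlap, and 0 were called (limma adjusted p from 0.0601 to 0.876). Over all tested genes, 8.98% were higher and 8.58% lower without overlap. The summed markers of neurons were at 12.8 to 14.2 FPKM in the young and 16.3 to 19.4 FPKM in the aged libraries, those of fibroblasts and pericytes at 0.93 to 1.16 and 3.11 to 4.08 FPKM, and those of microglia at 0.31 to 0.38 and 0.41 to 0.56 FPKM. The summed markers of ependyma and choroid plexus overlapped, at 11.6 to 13.6 FPKM in the young and 10.1 to 13.8 FPKM in the aged libraries. In the fibroblast and pericyte list the 3 markers higher without overlap were the collagens Col1a1, Col1a2 and Col3a1. Col1a1 had means of 0.423 and 2.46 FPKM, while the pericyte marker Pdgfrb stayed at 0.03 FPKM or less and Rgs5 at 0.1 FPKM or less. Col1a1, the 1 marker of that list tested (limma adjusted p = 0.0107), was at 0.31 to 0.54 FPKM in the young libraries. It reached the mean of 1 FPKM only through the aged libraries, so nothing is read from that p. In bulk RNA a change in the share of cells of a type and a change in RNA per cell cannot be told apart, and the part of these markers in the Gpr37l1 difference was not tested.

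Gpr37 (gene 14763, chromosome 6, 25668523 to 25689980, minus strand), the relative of Gpr37l1, was a low transcript in these cells. Its values were 1.02, 1.02 and 1.93 FPKM in the young and 2.37, 1.57 and 1.78 FPKM in the aged libraries. The groups overlapped, because young 3 lay above 2 of the aged libraries. The means of 1.32 ± 0.525 and 1.91 ± 0.415 FPKM (SD, n = 3 each) differed by 0.34 ± 0.21 (SE) in log2(FPKM + 1). Only 27.5 to 62.4 estimated reads per library support it. Mature oligodendrocyte markers were also low, with Mbp at 0.89 FPKM or less, Mobp at 0.75 FPKM or less and Mag at 0.08 FPKM or less. The 9 listed markers summed to 74.7 to 82.4 FPKM in the young and 80.04 to 85.02 FPKM in the aged libraries, of which Cnp, which immature cells of the lineage express too, made up 65.8 to 77.4 FPKM.

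Ednrb (gene 13618, chromosome 14, 103814615 to 103844508, minus strand) had the highest level of the 7 in each library. It lay at 141, 135 and 133 FPKM in the young and at 124, 122 and 126 FPKM in the aged libraries. All aged values were below all young ones, and the gap between the groups was small beside the level. The means were 136.6 ± 4.14 and 124.0 ± 1.81 FPKM (SD, n = 3 each), a ratio of 0.907 and a log2(FPKM + 1) difference of -0.14 ± 0.03 (SE). A difference of larger absolute size was found in 23.1% of all tested genes. With 2305 to 2744 estimated reads per library, read sampling gives a variation of about 1.94% in young and 2.06% in aged libraries, close to the 3.03% and 1.46% between libraries. Endothelial cells also express Ednrb. The summed level of 7 endothelial markers lay at 1.55 to 2.87 FPKM in the young and 0.95 to 1.15 FPKM in the aged libraries, with Cldn5 listed at 0 in 5 of the 6. Only Flt1 of these markers was lower without overlap. None of the 7 exceeded 1.21 FPKM in any library, and 0 entered the fit. The part of endothelial RNA in the Ednrb values was not tested.

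The lysophospholipid receptors S1pr1 and Lpar1 stood far apart in level. S1pr1 (gene 13609, chromosome 3, 115710433 to 115715055, minus strand), through which sphingosine-1-phosphate acts on cell migration, was at 19.6, 22.01 and 19.4 FPKM in the young and at 15.97, 19.1 and 21.4 FPKM in the aged libraries. The aged libraries ran from below the young range, in aged 1, to within it, in aged 3. The means of 20.3 ± 1.45 and 18.8 ± 2.70 FPKM (SD, n = 3 each) differed by -0.12 ± 0.13 (SE) in log2(FPKM + 1), and by -0.01 without aged 1. Lpar1 (gene 14745, chromosome 4, 58435252 to 58554027, minus strand), a receptor of myelinating cells and of hippocampal progenitors, was listed at 0.11, 0 and 0.26 FPKM in the young and at 0.11, 0.22 and 0.05 FPKM in the aged libraries. These are 0 to 4.9 estimated reads per library, too few to show a difference between the ages.

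Ntsr2 (gene 18217, chromosome 12, 16653443 to 16660236, plus strand), the neurotensin receptor of astrocytes, lay at 10.6, 12.1 and 8.67 FPKM in the young and 11.0, 11.4 and 13.9 FPKM in the aged libraries. The groups overlapped, with young 3 lowest and aged 3 highest. The means were 10.4 ± 1.71 and 12.1 ± 1.55 FPKM (SD, n = 3 each), and the log2(FPKM + 1) difference was 0.20 ± 0.16 (SE). About 71.8 to 113 estimated reads per library give a sampling variation of 10.8% in young and 10.1% in aged libraries, against 16.4% and 12.8% between libraries.

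Gprc5b (gene 64297, chromosome 7, 118972040 to 118995211, minus strand) varied little between libraries. Its values were 47.5, 46.3 and 48.1 FPKM in the young and 48.7, 49.0 and 46.5 FPKM in the aged libraries. The ranges overlapped, and the means of 47.3 ± 0.912 and 48.1 ± 1.38 FPKM (SD, n = 3 each) differed by 0.02 ± 0.03 (SE) in log2(FPKM + 1). The variation between libraries, 1.93% in young and 2.88% in aged, was below the 3.62% and 3.64% that read sampling is estimated to give. The 3′ end of Gprc5b overlaps an exon of Iqck on the opposite strand. Iqck was at 8.91 to 11.4 FPKM, and because the strand setting is not given in the sources used here, reads of the shared stretch cannot be told apart.

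**Figure D1:**
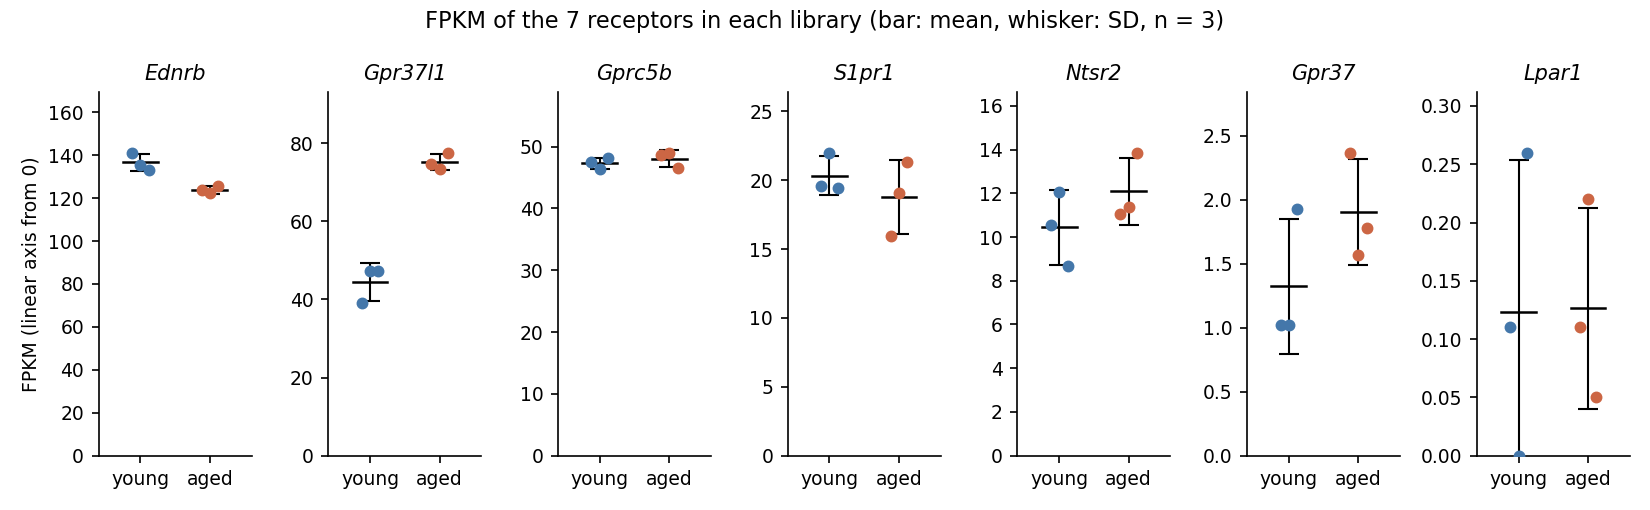
FPKM of each receptor (vertical axes, linear from 0 and scaled per gene) in the 3 young and 3 aged libraries. Points are libraries, horizontal bars the group means and whiskers the SD. Gpr37l1 lies at 39.0 to 47.4 FPKM in the young and 73.5 to 77.6 FPKM in the aged libraries, and the aged values of Ednrb lie just below the young ones, while the groups of the other 5 receptors overlap.

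The order of the members by level was the same in all libraries except for Gpr37l1 and Gprc5b. Ednrb was highest in each of the 6, and S1pr1, Ntsr2, Gpr37 and Lpar1 followed after these in that order. In young libraries the ratio of Gpr37l1 to Gprc5b was 0.821, 1.02 and 0.984, so these neighbours did not differ beyond their spread there. In aged libraries the same ratio was 1.53, 1.499 and 1.67, with Gpr37l1 above Gprc5b in each. The ratio of Gpr37l1 to Ednrb, which does not depend on the scaling between libraries, was 0.276 to 0.356 in young and 0.601 to 0.617 in aged libraries. Summed over the 7 receptors the level was 260.7 ± 2.97 FPKM in the young and 280.2 ± 5.88 FPKM in the aged libraries (SD, n = 3 per age). Gpr37l1 supplied 17.1% ± 1.77 of that sum in young and 26.9% ± 0.280 in aged libraries, and Ednrb 52.4% ± 1.84 and 44.2% ± 0.454 (SD, n = 3 each).

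**Figure D2:**
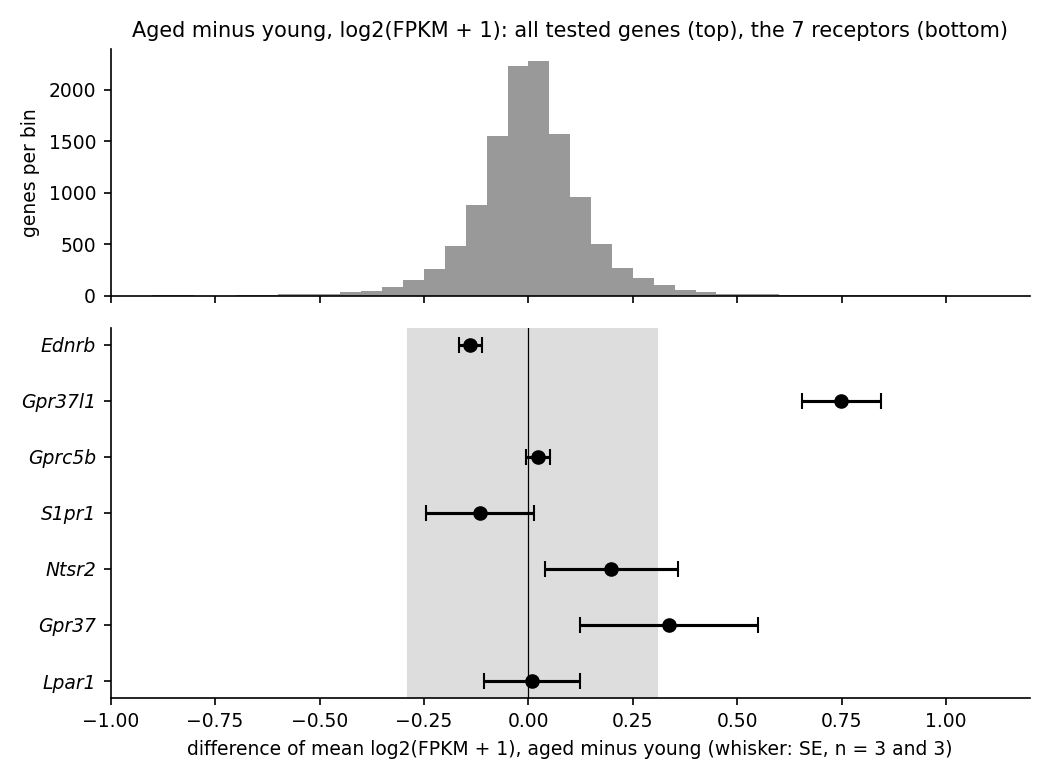
Difference of mean log2(FPKM + 1), aged minus young, for the 11912 tested genes in bins (top) and for the 7 receptors (bottom, point and SE, n = 3 and 3). The horizontal axis is cut at both ends, and genes with differences beyond it are not drawn. The grey band, from -0.29 to 0.31, leaves out the 2.5% of tested genes with the lowest and the 2.5% with the highest differences. Gpr37l1 at 0.75 lies far outside the band and Gpr37 at 0.34 just outside it with an SE that reaches into it, and the other 5 receptors lie within it.

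Among 110 receptor genes with a value (the members, their relatives other than sortilin, and a list of other receptors of glia, progenitors and brain), Ednrb was at place 2 by mean FPKM over the 6 libraries, Gpr37l1 at 5 and Gprc5b at 7. S1pr1 was at place 18, Ntsr2 at 27, Gpr37 at 60 and Lpar1 at 94. By age, Gpr37l1 was at place 7 in young and 5 in aged libraries, and Gprc5b at 6 in both. Above Gpr37l1 (mean 59.9 FPKM over both ages) stood, besides Ednrb, Adgrg1, an adhesion receptor of progenitors (198 FPKM), Adcyap1r1, the PACAP receptor (83.6 FPKM), and the adhesion receptor Adgrb2 (79.6 FPKM). F2r, the thrombin receptor, stood above both Gpr37l1 and Gprc5b in young libraries (mean 50.9 FPKM) and below both in aged ones (47.1 FPKM). Its own log2(FPKM + 1) difference was -0.11 and was not called (limma adjusted p = 0.352).

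**Figure D3:**
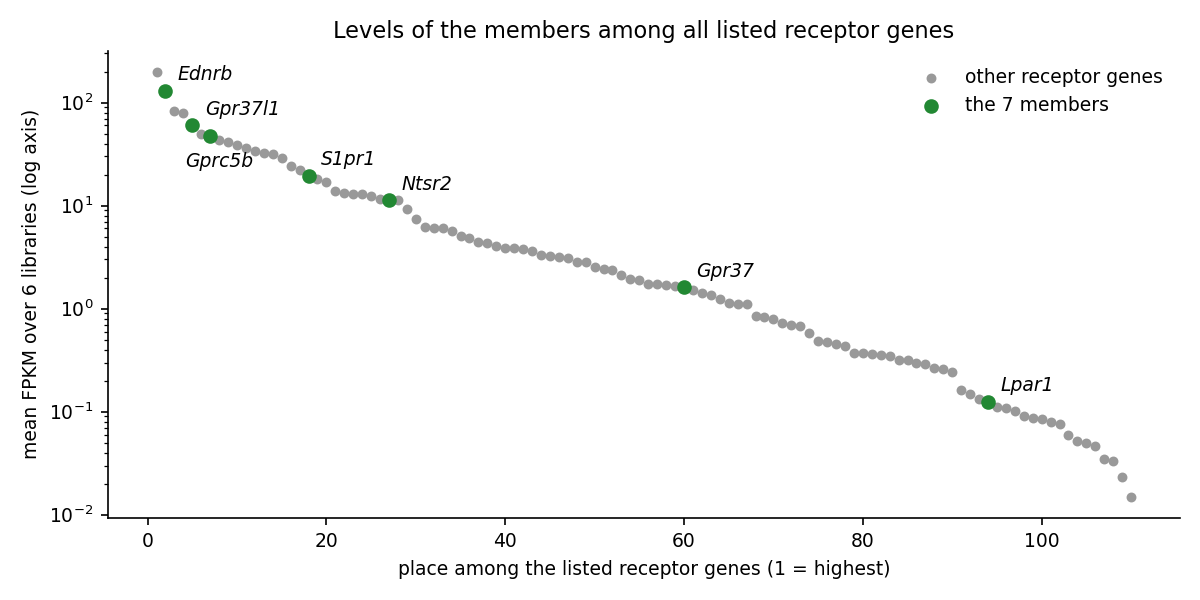
Mean FPKM over the 6 libraries (vertical, log axis) against place by level (horizontal) for 110 receptor genes. Green points are the 7 members and grey points the other receptors. Ednrb, Gpr37l1 and Gprc5b lie among the first 7 places, and Lpar1 with 0.125 FPKM lies at place 94.

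Receptors of the same families were mostly low. Of 15 listed relatives 13 had a value and 5 a mean of at least 1 FPKM. By limma 0 of the 5 were called, 1 was higher and 1 lower at an unadjusted p under 0.05, and their median log2 difference was 0.01. S1pr2, another sphingosine-1-phosphate receptor, was at 5.94, 4.64 and 5.49 FPKM in the young and 6.59, 6.77 and 7.73 FPKM in the aged libraries, without overlap (limma adjusted p = 0.232). Lpar2 was at 1.77 to 2.25 FPKM in the young and 1.29 to 1.47 FPKM in the aged libraries, also without overlap (limma adjusted p = 0.317). These are 2 of the 5 tested relatives (40%), where the share without overlap over all tested genes was 17.6%. Lpar6, the most abundant of the listed lysophosphatidic acid receptors, had means of 7.69 and 6.99 FPKM, and the endothelin receptor Ednra lay at 1.79 to 2.18 FPKM over all libraries. Sort1, the sorting receptor sortilin that also binds neurotensin, had means of 18.9 FPKM at both ages. No library had more than 1.15 FPKM of any of the other 8 relatives.

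The supply of ligands to these receptors was uneven. Psap, the prosaposin gene, was at 404 ± 4.19 FPKM in the young and 389 ± 6.66 FPKM in the aged libraries (SD, n = 3 per age, limma adjusted p = 0.474), whereas Nts, the neurotensin gene, was at 0 in 5 libraries and 0.15 FPKM in the sixth. Of 18 listed supply genes 15 had a value and 11 were tested. By limma 0 of the 11 were called, 3 were higher and 1 lower at an unadjusted p under 0.05, and their median log2 difference was -0.05. Enpp2, which encodes autotaxin, the enzyme that makes lysophosphatidic acid, was at 12.3, 9.85 and 12.7 FPKM in the young and 15.6, 15.7 and 13.98 FPKM in the aged libraries (limma adjusted p = 0.181). Plpp3, a phosphatase that degrades lysophospholipids, had means of 82.0 and 94.0 FPKM (limma adjusted p = 0.182). Ece2, an endothelin-converting enzyme, had means of 9.29 ± 0.384 and 12.1 ± 0.536 FPKM (SD, n = 3 each, limma adjusted p = 0.0631). Sgpl1, the lyase that breaks down sphingosine-1-phosphate, had means of 45.0 and 41.2 FPKM (limma adjusted p = 0.303). The young and aged libraries of these 4 enzymes did not overlap, yet none passed over all genes tested. With Psap, which was lower in every aged library, 5 of the 11 genes did not overlap (45.5%), where the share over all tested genes was 17.6%. The endothelin genes Edn1, Edn2 and Edn3 were not analysed here.

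The list of 98 other receptors gave values for 91 genes, of which 57 were tested. By limma 0 of the 57 were called, 3 were higher and 6 lower at an unadjusted p under 0.05, and the median log2 difference was 0.01. Without overlap between the ages 10 were higher and 6 lower, 28.1% of the 57 where the share over all tested genes was 17.6%. Gpr17, an orphan receptor of oligodendrocyte precursors, was at 1.56, 1.28 and 1.28 FPKM in the young and 2.48, 2.57 and 2.25 FPKM in the aged libraries (limma adjusted p = 0.116). Adgrb1, an adhesion receptor for apoptotic cells, had means of 36.1 and 41.0 FPKM (limma adjusted p = 0.226), and the adenosine receptor Adora2a 3.78 and 5.11 FPKM (0.277). The 3 of highest level outside the members, Adgrg1, Adcyap1r1 and Adgrb2, had means of 195 and 201, 81.4 and 85.8, and 77.5 and 81.7 FPKM in the young and aged libraries (limma adjusted p from 0.474 to 0.577).

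Of the G protein subunits, cyclases, phospholipases, receptor kinases, arrestins and RGS proteins through which such receptors signal, 66 of 69 listed genes had a value and 52 were tested. Without overlap between the ages 7 were higher and 3 lower, 19.2% of the 52 where the share over all tested genes was 17.6%. By limma 0 rose and 1 fell, 1.92% of the 52 beside 0.722% of all tested genes, and the median log2 difference was -0.01. The gene that fell was Rgs16, which encodes a GTPase-activating protein that ends signals of Gi and Gq proteins. It lay at 9.76, 8.66 and 10 FPKM in the young and 6.33, 5.98 and 6.53 FPKM in the aged libraries. The means were 9.47 ± 0.715 and 6.28 ± 0.278 FPKM (SD, n = 3 each), a log2(FPKM + 1) change of -0.52 ± 0.08 (SE), and the limma adjusted p was 0.0247. The call was lost without young 1 (0.122), young 3 (0.104), aged 1 (0.0855), aged 2 (0.0692) or aged 3 (0.0710), with no filter (0.0654), in limma without its trend (0.0763) and with replicates as a block (0.0719). Rgs20, of the same family, had means of 32.2 and 26.3 FPKM (limma adjusted p = 0.0730). The G protein gamma subunit Gng10 had means of 35.7 and 43.4 FPKM (limma adjusted p = 0.229). Gng13, another gamma subunit, was at 2.68, 1.34 and 0.89 FPKM in the young and 0.46, 0.92 and 0 FPKM in the aged libraries. Its groups overlapped (limma adjusted p = 0.313), and its mean of 1.05 FPKM passed the filter only through the young libraries. Among the most abundant, the stimulatory subunit Gnas had means of 898 and 907 FPKM, Gnb2 312 and 327 FPKM and the inhibitory subunit Gnai2 279 and 289 FPKM (limma adjusted p from 0.427 to 0.866).

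**Figure D4:**
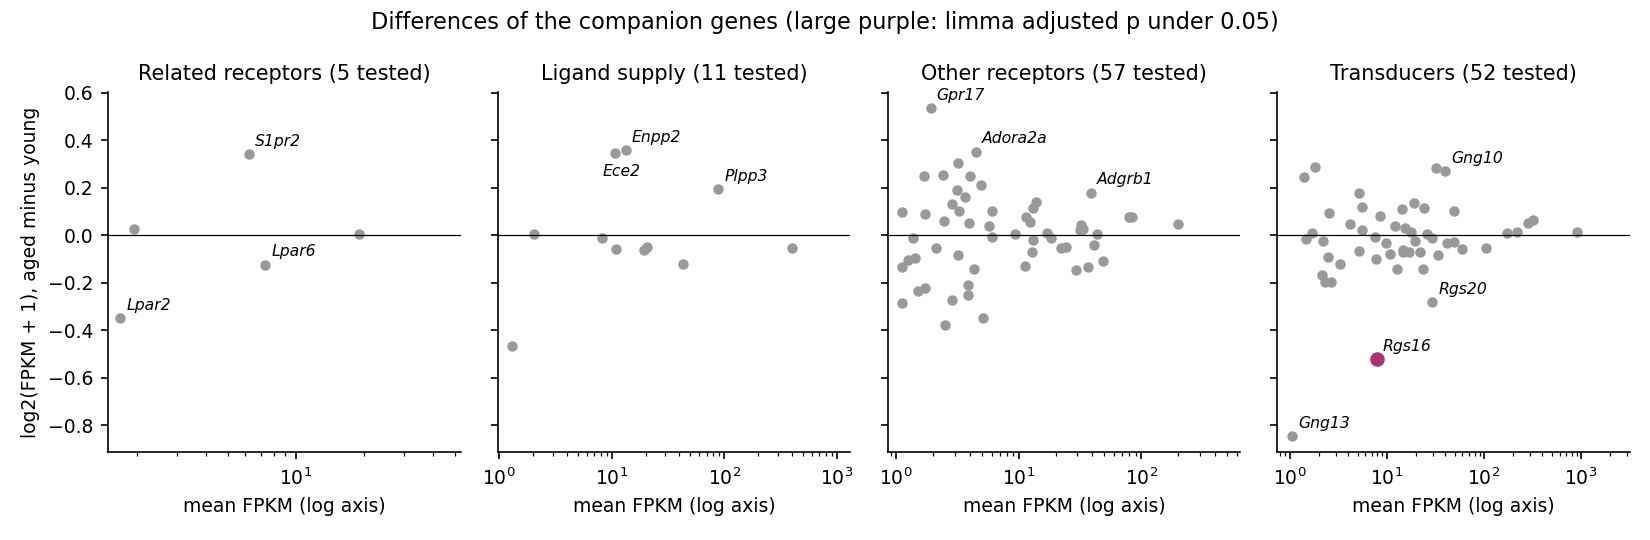
Difference of log2(FPKM + 1), aged minus young (vertical), against mean FPKM (horizontal, log axis) for the tested genes of 4 lists. Each point is a gene, and the large purple point is Rgs16, the 1 gene with a limma adjusted p under 0.05. Most of the other genes lie near 0, and those labelled have the smallest unadjusted p of their list.

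The genes whose log2(FPKM + 1) values over the 6 libraries were most like those of Gpr37l1, among 9001 others with a mean of at least 5 FPKM, were Polr2f, Taf1b and H2-K1 (Pearson r 0.996, 0.992 and 0.992). Polr2f encodes a subunit shared by the RNA polymerases, Taf1b a factor of ribosomal RNA transcription and H2-K1 a class I histocompatibility chain of a multicopy family. With 6 points in 2 groups such likeness is easily reached, and 68 genes had an r above 0.95. For the other members the most similar gene was Gskip for Ednrb (0.998), Eif4h for Gpr37 (0.993), Shq1 for S1pr1 (0.983), Tmem261 for Ntsr2 (0.978), Fbxo5 for Gprc5b (0.985) and Med27 for Lpar1 (0.990), the last over values of a few reads. Between members, Gpr37l1 and Ednrb had an r of -0.97 over all libraries and of -0.74 after the mean of each group was removed. Gpr37l1 and Gpr37 had an r of 0.68, and of 0.42 after removal of the group means. All these values share the same 6 libraries and their scaling.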

How the data were processed

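RNA of 6 libraries (3 young, 3 aged) was sequenced after removal of ribosomal RNA, with 1 ug of RNA per library, per the labels' protocols. Each gene has 1 FPKM value per library, which the authors deposited with 2 decimals, per the file headers. The submitters' processing notes name the programs TopHat and Cuffdiff and the genome mm10, without version, role or order. Annotation, strand setting, filters and normalization between libraries are not given in the sources used here.

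Samples were grouped by their titles. The members and gene lists were chosen with earlier results of these data known. Of 17006 identifiers 16962 matched a RefSeq table of GRCm38.p6, which gave coordinates, counted from 1. Exons, strands and transcript lengths came from GENCODE M21. Depth was estimated from FPKM worth 1 read in genes with 1 transcript: 74.8% to 77.7% of values between 0.3 and 3.5 reads, and 52.6% to 57.0% between 3.5 and 10.5 reads, lay within 0.15 of a whole number. Estimated reads are approximate and were not tested as counts.

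The fit used limma 3.58.1 in R 4.3.3 (trend, no covariates, two-sided, Benjamini-Hochberg adjustment, threshold 0.05) on log2(FPKM + 1), for genes whose mean reached 1 FPKM. This scale makes the changes of low genes smaller. It was tested on simulated data. SEs of members come from the variances of both groups, those of other genes from limma. Named genes were the members, every called gene of 4 lists, the 3 others per list with the smallest p and the 3 with the highest mean, and the genes most like a member. Ednra, F2r, Nts and single markers were named after their values were seen. Alternatives covered pseudocount, filter, scaling, trend, replicate block and leaving out each library. Tables used pandas 2.3.3 and numpy 2.4.6 and figures matplotlib 3.10.9, under Python 3.11.15.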

Additional observations from a re-analysis of the deposited data

How the results depend on the processing

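The number of calls over all genes changed with the model and with the libraries used. Of the 86 genes, 10 were kept without limma's trend (11 called) and 21 with replicates as a block (22 called). With 1 library left out, 39 to 70 genes were called (39 without young 3). Same-numbered young and aged libraries did not deviate together in every pair (r of 0.008, -0.072 and 0.108), so the numbers were not taken as pairs. Among transducers, the single call, Rgs16, was lost (0 called) with no filter, without limma's trend and with the block, and the count ran from 0 to 1 with 1 library left out. No related receptor, ligand supply gene or other receptor was called by limma in any alternative run. Gpr37l1 and Ednrb separated by age under each scaling. A change of pseudocount or the loss of a library cannot make separated groups overlap, so those runs are no check of the separation. With 1 library left out, the number of members that separated ran from 2 to 4, the highest without aged 3, where S1pr1 and Gprc5b separated as well. Groups separate more easily with fewer libraries, and no share over all genes was computed for these runs. The sign of the log2 difference of the 6 tested members was the same in all alternatives run. A change of filter, trend or block leaves that difference as it is. Only pseudocount, scaling and left-out libraries could have moved it. The difference of Gpr37l1 ran from 0.66 to 0.80 and that of Ednrb from -0.16 to -0.11, those of S1pr1 from -0.21 to -0.01, Ntsr2 from 0.08 to 0.30, Gpr37 from 0.13 to 0.54 and Gprc5b from 0.01 to 0.05. Depth limits Lpar1, at 4.9 estimated reads or fewer per library, and Gpr37.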
